A study of Mus musculus with 38 samples.

Results

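The genes described here are 40 genes of mitosis and DNA replication in mouse thyroid, taken by name. They were 29 genes whose products work in G2 and mitosis and 11 whose products copy DNA or make its building blocks, out of 19938 genes named by at least 1 probe set with a single symbol. Each gene was read from the single-symbol probe set with the highest mean over all arrays, which was a choice only for *Top2a* and *Pcna*, with 2 such probe sets each. All 40 were measured and tested, and all signals below are log2 values of the arrays, on which a difference of 1 is a doubling.

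RNA from part of the thyroid of 38 mice was hybridised to GeneChip Mouse Gene 1.0 ST arrays, 1 mouse per array, and the rest of each gland was read by a pathologist. The transgene was human BRAFV600E cDNA behind the bovine thyroglobulin promoter, which drives expression in thyroid follicular cells, on the FVB/N background, and *BRAF*(+) mice had its RNA in the thyroid while *BRAF*(-) mice did not. The groups were papillary thyroid carcinoma (PTC, 10 mice) and borderline lesion (BL, with some nuclear or focal changes but no full carcinoma, 10 mice), all *BRAF*(+), benign hyperplastic lesion (BHL) in 4 *BRAF*(+) and 4 *BRAF*(-) mice, and asymptomatic thyroid (AT) in 5 *BRAF*(+) and 5 *BRAF*(-) mice. Most *BRAF*(-) mice were genotyped as non-transgenic and 1 of the BHL mice was transgenic without transgene RNA, so that both kinds stand in that group. There were 29 females and 9 males, with 1 or 2 males in each group, and ages ran from 4 to 24 months, with group medians of 10 to 11.5 months. The transgenic line is not given per mouse in the labels, so no comparison was made within a line, and p-values measure the spread between mice. The study lists lines per group, and their mix differed between the groups, also between *BRAF*(+) and *BRAF*(-) mice of the same lesion type. It reports that the lines differed in the level of BRAFV600E protein and in how often PTC arose. In such whole-gland RNA, fewer dividing cells and less RNA of these genes per cell cannot be told apart.

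Most adult tissues hold few dividing cells, and follicular cells of the adult thyroid divide rarely. Genes of the cell cycle are switched on in order. E2F factors drive the genes for DNA synthesis at the G1/S boundary, among them the MCM helicase that unwinds DNA at replication origins. The genes for mitosis follow in G2, after the DREAM complex at their promoters has come apart and B-MYB and FOXM1 have bound there. The second wave is read through a short element, the CHR (cell cycle genes homology region), usually with CCAAT boxes for the factor NF-Y close by. In thyroid cells, proliferation is driven by thyrotropin and, in BRAF-mutant tumours, by MAP kinase signalling, and the share of cells with Ki-67 protein is used in pathology to grade it.

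Promoter sequences are given first because these genes are known for shared promoter elements. The RefSeq-derived table of promoters (build GRCm38.p6, 250 bases before to 50 bases after each start) held 36 promoters of 33 of the 40 genes. *Ccna2*, *Aurkb*, *Kif20a*, *Tpx2*, *Dlgap5*, *Foxm1* and *Mcm4* were not in it. Exact matches on both strands were counted for 3 motifs, and matches may overlap each other. The letters searched as a CHR were TTTGAA, and those of its other form were TTTAAA. For NF-Y the CCAAT box was searched as spelled in its name, and an E2F site as TTTCGCGC, TTTGGCGC, TTTCCCGC or TTTGCCGC. The 170 bases before the start of 4 mitotic genes and 3 replication genes follow, 5′ to 3′ on the gene's strand, with each match in capitals, where a match on the other strand shows as its reverse complement (ATTGG for a CCAAT box).
Mki67 (chr7:135716380-135716549, minus strand): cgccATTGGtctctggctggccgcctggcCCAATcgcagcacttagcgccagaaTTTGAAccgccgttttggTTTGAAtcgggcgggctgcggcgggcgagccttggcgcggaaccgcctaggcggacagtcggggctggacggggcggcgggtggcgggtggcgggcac
Cdk1 (chr10:69352913-69353082, minus strand): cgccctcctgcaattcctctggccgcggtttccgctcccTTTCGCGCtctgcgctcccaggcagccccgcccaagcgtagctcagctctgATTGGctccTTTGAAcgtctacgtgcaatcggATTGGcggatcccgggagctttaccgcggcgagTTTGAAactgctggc
Ccnb2 (chr9:70421555-70421724, minus strand): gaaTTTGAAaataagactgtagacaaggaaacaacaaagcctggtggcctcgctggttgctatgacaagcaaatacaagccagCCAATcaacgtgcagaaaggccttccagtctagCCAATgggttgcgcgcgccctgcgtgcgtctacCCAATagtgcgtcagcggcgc
Top2a (chr11:99024190-99024359, minus strand): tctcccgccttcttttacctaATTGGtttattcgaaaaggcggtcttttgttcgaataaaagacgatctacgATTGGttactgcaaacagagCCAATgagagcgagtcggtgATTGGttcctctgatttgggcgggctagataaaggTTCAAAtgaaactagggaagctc
Mcm6 (chr1:128359706-128359875, minus strand): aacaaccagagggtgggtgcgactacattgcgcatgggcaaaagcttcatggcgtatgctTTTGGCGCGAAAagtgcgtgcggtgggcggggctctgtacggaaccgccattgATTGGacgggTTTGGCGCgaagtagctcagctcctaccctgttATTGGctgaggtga
Mcm5 (chr8:75109339-75109508, plus strand): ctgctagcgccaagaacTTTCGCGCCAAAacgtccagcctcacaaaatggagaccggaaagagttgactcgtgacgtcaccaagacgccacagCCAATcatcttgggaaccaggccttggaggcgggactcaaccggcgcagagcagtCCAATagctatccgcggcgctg
Mcm2 (chr6:88898781-88898950, minus strand): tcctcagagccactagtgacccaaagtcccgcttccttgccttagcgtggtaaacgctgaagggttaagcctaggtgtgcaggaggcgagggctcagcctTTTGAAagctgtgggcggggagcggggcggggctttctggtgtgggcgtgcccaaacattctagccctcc

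*Mki67* and *Cdk1* each held a pair of TTTGAA elements in this stretch, and *Top2a* held 1 on the other strand with 4 CCAAT boxes upstream. *Ccnb2* held 3 CCAAT boxes and 1 TTTGAA far from the start, and its other TTTGAA began at base 5 after the start, outside the stretch shown. *Mcm6* and *Mcm5* held overlapping E2F matches and no CHR in this stretch, and *Mcm2* held a TTTGAA and no E2F match. Over all promoters of the mitotic genes, 21 of 25 held a CHR match (84%), against 3 of 11 for the replication genes (27.3%) and 27.6% of the 32851 promoters in the table. E2F matches lay the other way, in 1 of 25 mitotic promoters, that of *Cdk1*, (4%) and 5 of 11 replication promoters (45.5%), against 2.26% of all promoters. A CCAAT box was in 20 of 25 mitotic and 9 of 11 replication promoters, against 37.4% of all. The 25 mitotic windows came from 23 genes, since *Ect2* and *Prc1* each had 2 overlapping windows that held the same matches. A match describes the letters in a window and is not a measured binding site.

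**Figure D1:**
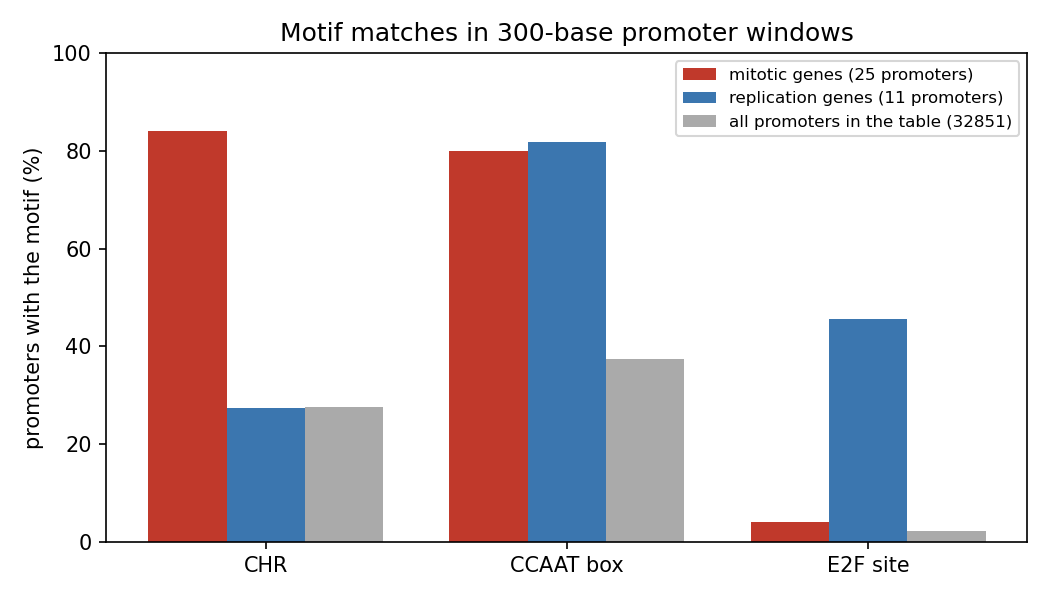
Share of promoter windows of 300 bases that held an exact match to a CHR, a CCAAT box or an E2F site, in percent, for the mitotic genes (red), the replication genes (blue) and all promoters in the table (grey). CHR matches stood in 84% of mitotic and 27.3% of replication promoters, and E2F matches in 4% and 45.5%.

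One mouse stood apart for these genes. Mouse M_946, a *BRAF*(-) mouse with BHL, had the highest signal of all 38 mice for 26 of the 29 mitotic and 9 of the 11 replication genes. Its *Mki67* signal was 8.25 against 4.85 to 7.53 in the other 37 mice, and its *Rrm2* signal was 8.57 against 5.04 to 6.50. The same gland held RNA of immature T cells: *Rag1*, of the V(D)J recombinase, was 9.25 against 3.97 to 4.75, *Dntt*, terminal deoxynucleotidyl transferase, was 9.07 against 3.75 to 4.56, and *Cd8b1*, a CD8 chain, was 10.19 against 4.86 to 6.13. Of the thymocyte markers 6 of 7, and of the T cell markers 7 of 7, were higher in it than in every other mouse. *Pth*, parathyroid hormone, was 12.95, but high *Pth* was not particular to it, with 12.87 in mouse M_524, 12.77 in mouse M_884 and 12.56 in mouse M_527. Thyroid RNA was present, with *Tg*, thyroglobulin, at 13.62 against 13.30 to 13.74 and *Slc5a5*, the iodide transporter, at 10.54 against 7.87 to 11.74. *Nkx2-1*, a thyroid transcription factor, was below every other mouse, at 9.28 against 9.32 to 10.40. The mean of the 7 thyroid markers was 9.90, against 10.39 to 10.64 in the other *BRAF*(-) BHL mice. The part of T cell and parathyroid RNA in the values of mouse M_946 was not tested. Each comparison below that leans on this mouse is given with and without it. The arrays' median signals lay between 6.00 and 6.15, and in the other 37 mice the mean of the thymocyte markers lay between 4.19 and 4.72 against 8.03 in mouse M_946.

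The mean signal of the 29 mitotic genes over the mice of a group was lowest in asymptomatic *BRAF*(-) thyroids and highest in PTC, with or without mouse M_946. It was 5.23 ± 0.14 (SD, n = 5) in AT *BRAF*(-), 5.46 ± 0.25 (SD, n = 5) in AT *BRAF*(+), 5.73 ± 0.23 (SD, n = 4) in BHL *BRAF*(+), 5.73 ± 0.25 (SD, n = 10) in BL and 5.80 ± 0.19 (SD, n = 10) in PTC. In BHL *BRAF*(-) it was 5.62 ± 0.76 (SD, n = 4), and 5.25 ± 0.25 (SD, n = 3) without mouse M_946. The ranges were 5.13 to 5.43 in AT *BRAF*(-) and 5.51 to 6.05 in PTC, which did not overlap, while that of BL, 5.24 to 6.21, overlapped both. The 11 replication genes had the same order at the low end, with 6.82 ± 0.10 (SD, n = 5) in AT *BRAF*(-), 6.99 ± 0.23 (SD, n = 5) in AT *BRAF*(+), 7.19 ± 0.16 (SD, n = 4) in BHL *BRAF*(+), 7.23 ± 0.18 (SD, n = 10) in BL and 7.23 ± 0.18 (SD, n = 10) in PTC. For BHL *BRAF*(-) the replication mean was 7.14 ± 0.59 (SD, n = 4), and 6.84 ± 0.09 (SD, n = 3) without mouse M_946. BHL *BRAF*(+), BL and PTC lay within 1 SD of each other in both means. These means describe a list chosen with results known and carry no test.

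**Figure D2:**
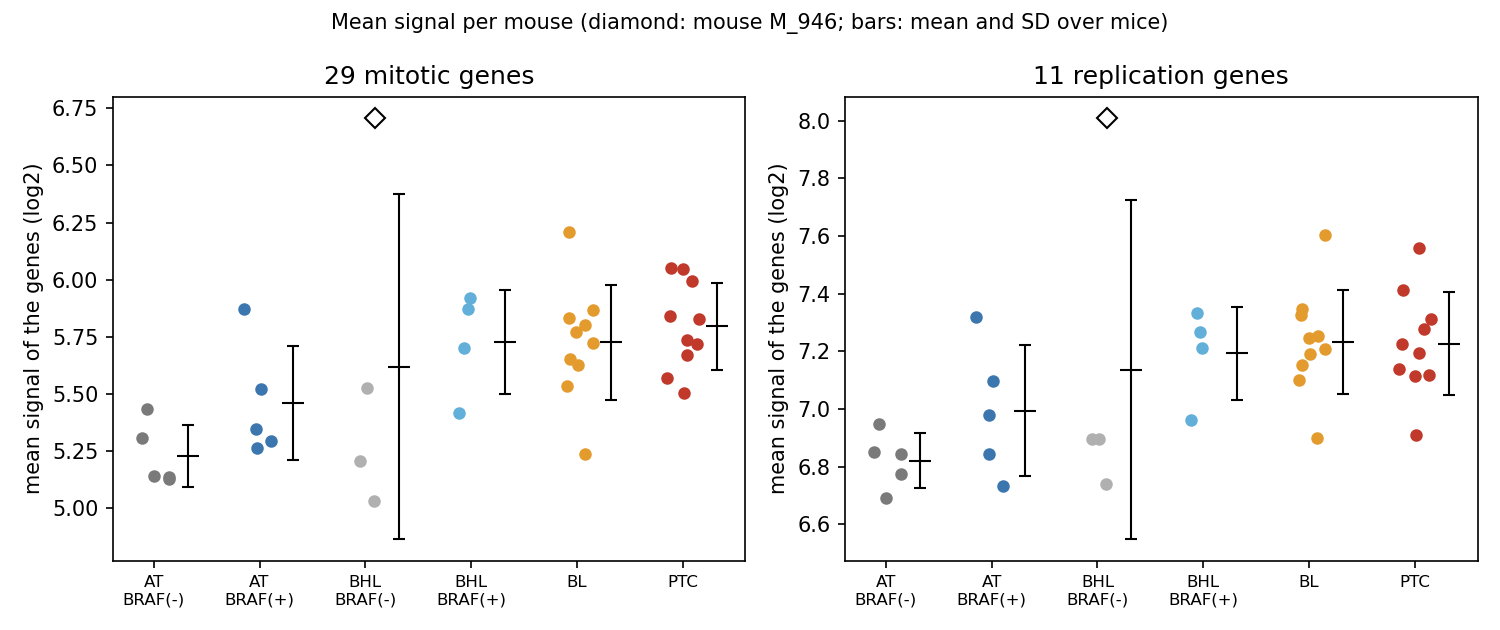
Mean log2 signal of the 29 mitotic genes (left) and the 11 replication genes (right) in each of the 38 mice, by group, with the mean and SD over mice beside the points. Mouse M_946 (diamond) is at 6.71 and 8.01, above every other mouse, and the 10 PTC thyroids lie at 5.51 to 6.05 for the mitotic genes against 5.13 to 5.43 in AT *BRAF*(-).

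Carcinomas were compared with asymptomatic *BRAF*(-) thyroids first, since these lie furthest apart in histology. Of the 29 mitotic genes 14 were higher in PTC, and of the 11 replication genes 3 (limma, Benjamini-Hochberg adjusted p under 0.05 over all 35556 probe sets), while 9.8% of all probe sets were called higher. None was lower, and all 40 log2 fold changes were above 0, with a median of 0.46 against -0.02 over all probe sets. Without mouse M_946, which is in neither group but enters the shared estimate of the spread, the counts were 19 and 7 (10.3% of all probe sets), with all 17 of the first set among them. The count of mitotic genes was 9 without AT *BRAF*(-) mouse M_940 and 7 without mouse M_956, 8 with muscle and adipocyte marker levels in the model and 5 in females alone, where 1 and 0 replication genes passed. Shares of all probe sets called are not given for these fits. Every PTC thyroid lay above every AT *BRAF*(-) thyroid for 9 members, *Top2a*, *Bub1*, *Aurkb*, *Kif11*, *Kif20a*, *Kif23*, *Cenpe*, *Ect2* and *Mcm5*, and the same held for 2.77% of all probe sets.

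*Mki67* encodes Ki-67, a coat protein of mitotic chromosomes and the usual mark of cycling cells. Its signals in the 5 AT *BRAF*(-) thyroids were 5.23, 5.26, 5.57, 5.61 and 6.60, and in PTC they ran from 6.37 to 7.44 with a median of 7.12 (log2 fold change 1.29, standard error 0.31, adjusted p = 0.0042). Only AT *BRAF*(-) mouse M_957, at 6.60, reached into the PTC range. *Top2a*, the topoisomerase that untangles sister chromatids, was at 4.90, 4.97, 5.10, 5.13 and 5.54 in AT *BRAF*(-) and from 5.57 to 6.93 with a median of 6.36 in PTC (log2 fold change 1.12, standard error 0.32, adjusted p = 0.0151), with the lowest PTC thyroid just above the highest AT one. Its second probe set gave 0.32 in place of 1.12 for the same difference. That probe set had a mean of 3.08 over all arrays against 5.89 for the one used, toward the lowest signal of 2.04.

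The cyclins and their kinase were all higher in PTC. *Ccna2*, cyclin A2, which serves S phase and early mitosis, was at 5.13, 5.17, 5.41, 5.61 and 6.25 in AT *BRAF*(-) and from 5.86 to 7.10 with a median of 6.71 in PTC (log2 fold change 1.06, standard error 0.31, adjusted p = 0.0144). *Ccnb2*, a mitotic B cyclin, was at 5.40, 5.90, 5.98, 6.08 and 6.46 and from 6.31 to 7.25 with a median of 6.83 (log2 fold change 0.78, standard error 0.23, adjusted p = 0.0183). *Cdk1*, the kinase both activate, was at 5.85, 6.10, 6.47, 6.47 and 6.61 and from 6.51 to 7.66 with a median of 7.40 (log2 fold change 0.88, standard error 0.22, adjusted p = 0.00603). In each of these 3 genes 1 PTC thyroid, that of mouse M_1002, lay within the AT range and the other 9 lay above it. *Foxm1*, the transcription factor of the G2 wave, was at 4.96, 5.16, 5.18, 5.35 and 5.52 and from 5.24 to 6.05 with a median of 5.74 (log2 fold change 0.42, standard error 0.14, adjusted p = 0.0291), with 2 PTC thyroids inside the AT range.

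Of the 7 mitotic kinases and checkpoint genes *Aurkb* and *Bub1* were higher in PTC. *Aurkb*, the kinase of the chromosomal passenger complex, was at 5.91, 6.13, 6.24, 6.33 and 6.40 in AT *BRAF*(-) and from 6.47 to 7.33 with a median of 6.83 in PTC (log2 fold change 0.63, standard error 0.23, adjusted p = 0.0474). *Bub1*, a checkpoint kinase of the kinetochore, was at 4.39, 4.39, 4.47, 4.82 and 4.94 and from 4.98 to 5.72 with a median of 5.34 (log2 fold change 0.66, standard error 0.23, adjusted p = 0.0371). Neither gene's groups overlapped. *Bub1b*, its partner BubR1, was at 4.89, 4.93, 5.14, 5.15 and 5.21 and from 5.18 to 5.93 with a median of 5.54, and its adjusted p was 0.0615 with all mice and 0.00383 without mouse M_946. *Plk1*, polo-like kinase 1, was at 5.36, 5.55, 5.65, 5.89 and 6.02 and from 5.75 to 6.64 with a median of 6.29, with an adjusted p of 0.126 and 0.0441. *Aurka*, the spindle pole kinase, *Ttk*, the checkpoint kinase MPS1, and *Melk*, a further kinase of mitotic cells, had log2 fold changes of 0.04, 0.02 and 0.06 with standard errors of 0.11, 0.09 and 0.09, and passed in neither fit.

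Of the spindle and cytokinesis genes *Kif23*, *Prc1*, *Kif11*, *Kif20a* and *Ect2* were higher in PTC. *Kif23*, the MKLP1 motor of the central spindle, was at 5.23, 5.25, 5.34, 5.56 and 5.60 in AT *BRAF*(-) and from 5.75 to 6.58 with a median of 6.23 in PTC (log2 fold change 0.78, standard error 0.19, adjusted p = 0.00329). *Prc1*, which bundles midzone microtubules, was at 4.80, 4.87, 4.89, 4.89 and 5.31 and from 5.18 to 6.48 with a median of 5.91 (log2 fold change 0.79, standard error 0.22, adjusted p = 0.0111). The first pair of groups did not overlap and the second did. *Kif11*, the motor that separates spindle poles, was at 4.59, 4.60, 4.82, 5.15 and 5.21 and from 5.38 to 6.10 with a median of 5.91 (log2 fold change 0.87, standard error 0.27, adjusted p = 0.022). *Kif20a*, the MKLP2 motor, was at 4.81, 4.82, 4.87, 4.91 and 5.23 and from 5.46 to 5.99 with a median of 5.57 (log2 fold change 0.66, standard error 0.19, adjusted p = 0.0123). *Ect2*, which activates RhoA for the cleavage furrow, was at 5.56, 5.61, 5.94, 5.99 and 6.13 and from 6.20 to 6.79 with a median of 6.51 (log2 fold change 0.57, standard error 0.20, adjusted p = 0.0465). None of these 3 overlapped between the groups. *Tpx2* and *Nusap1*, which nucleate and bundle spindle microtubules, stood at 0.47 and 0.53 and passed only without mouse M_946 (adjusted p = 0.0449 and 0.0169), and *Dlgap5*, a spindle assembly factor, at 0.11 passed in neither.

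Of the centromere and kinetochore genes *Cenpe* passed and the others did not. *Cenpe*, the kinesin that brings chromosomes to the spindle equator, was at 4.12, 4.17, 4.24, 4.26 and 4.59 in AT *BRAF*(-) and from 4.69 to 5.56 with a median of 4.97 in PTC (log2 fold change 0.68, standard error 0.19, adjusted p = 0.00968), and the groups did not overlap. *Nuf2* and *Ndc80*, of the NDC80 complex that holds microtubules, had log2 fold changes of 0.33 and 0.12 (adjusted p = 0.0628 and 0.446), *Cenpf*, a protein of the outer kinetochore, 0.20 (adjusted p = 0.232) and *Cenpa*, the centromeric histone, 0.30 (adjusted p = 0.156). Without mouse M_946 *Nuf2* passed (adjusted p = 0.0285). *Birc5*, survivin, and *Cdca8*, borealin, sit with Aurora B in the passenger complex and gave 0.14 and 0.30 (adjusted p = 0.351 and 0.148). *Birc5* signals were 5.18, 5.21, 5.22, 5.24 and 5.38 in AT *BRAF*(-) and from 5.17 to 5.67 with a median of 5.40 in PTC, so that the groups overlapped widely. *Cdc20*, which starts anaphase through the anaphase-promoting complex, gave 0.19 (adjusted p = 0.286).

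**Figure D3:**
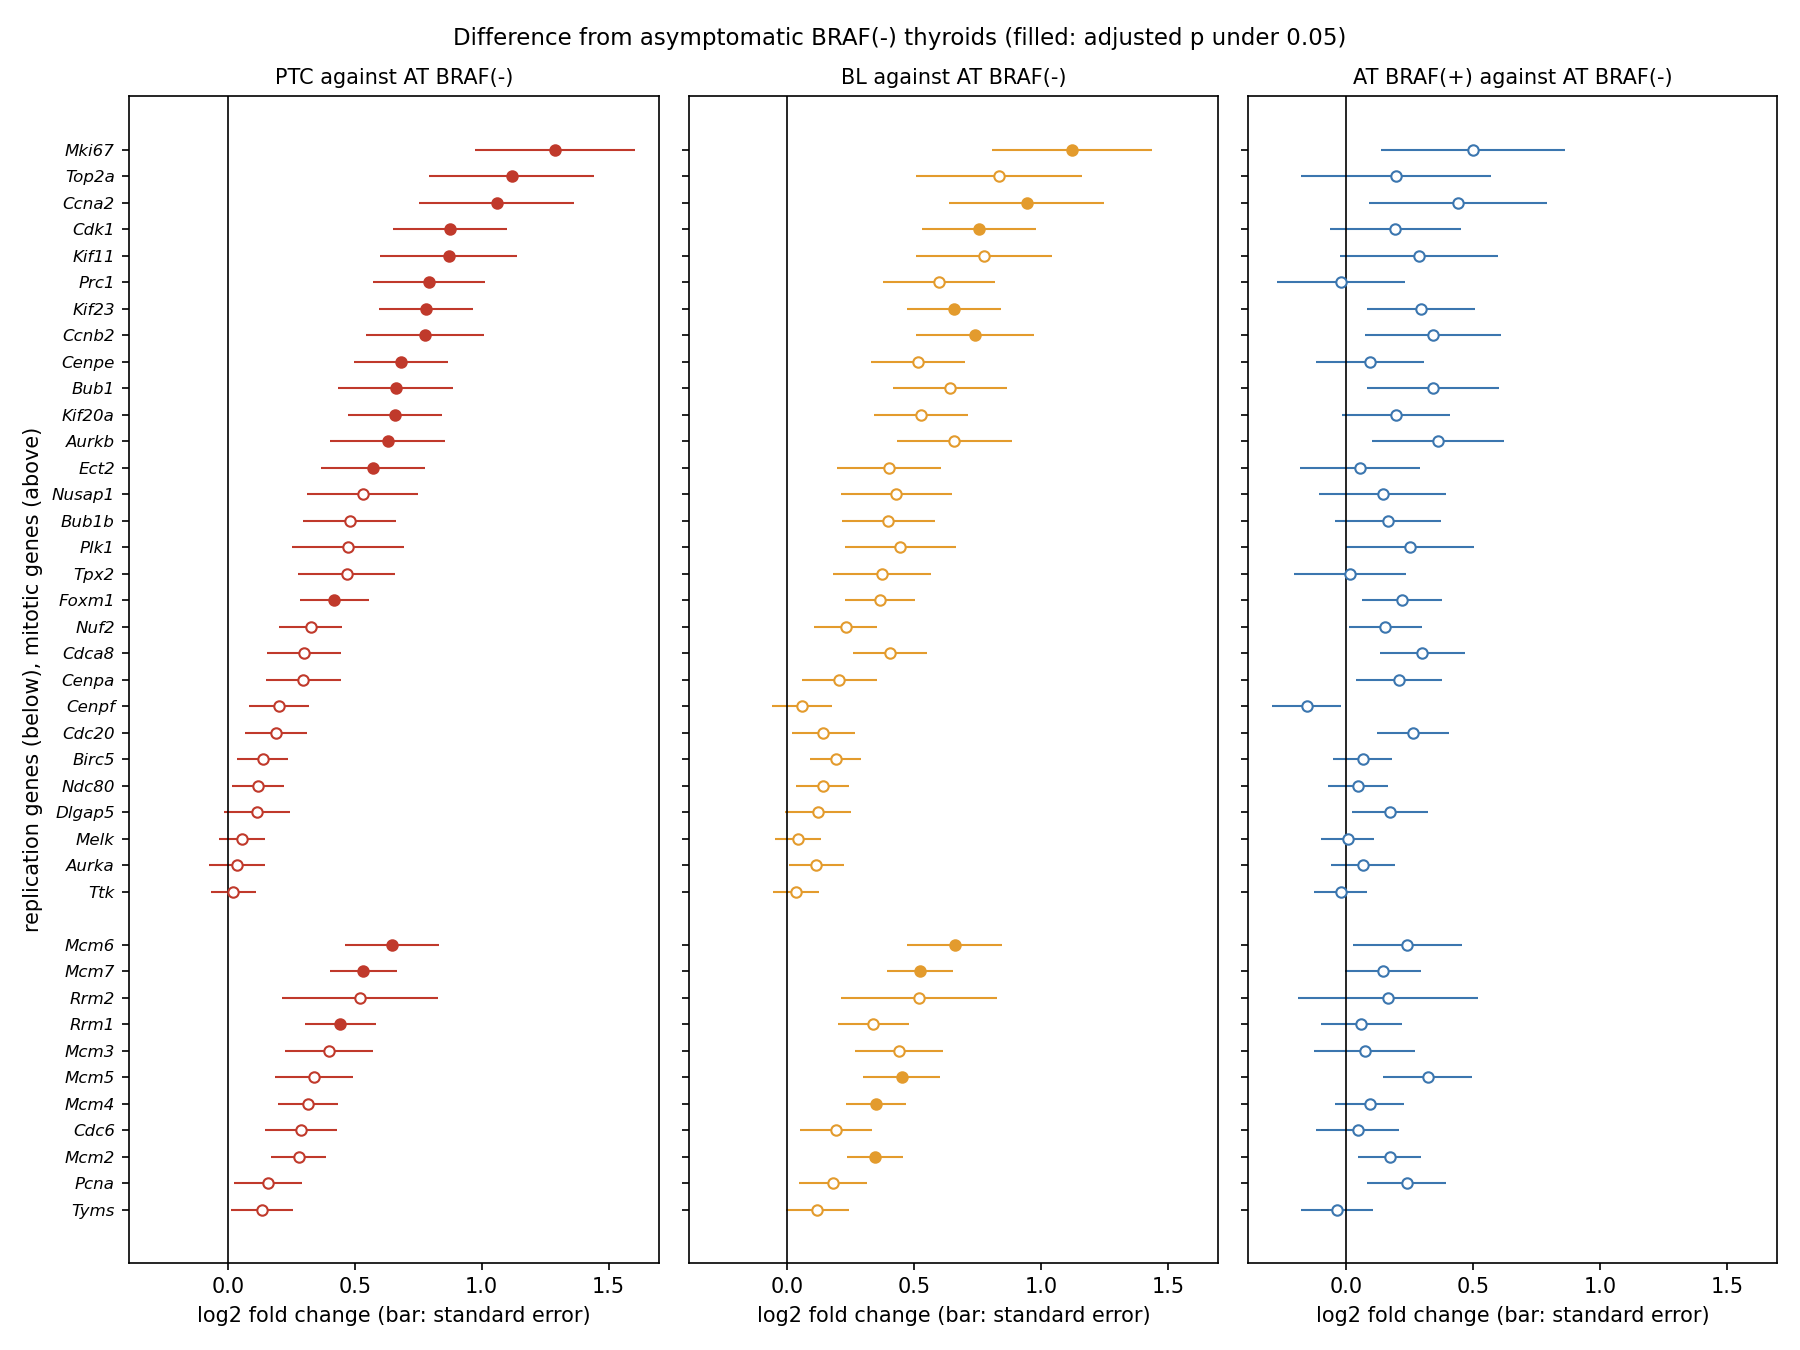
Log2 fold change with its standard error of each of the 40 genes in PTC (red), BL (orange) and AT *BRAF*(+) (blue) against the same 5 AT *BRAF*(-) thyroids, from the model over all 38 mice. Filled points passed adjusted p under 0.05, which 17 genes did in PTC, 10 in BL and 0 in AT *BRAF*(+).

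Among the replication genes 2 subunits of the MCM helicase and *Rrm1* were higher in PTC. *Mcm6*, a helicase subunit, was at 5.80, 5.89, 6.03, 6.11 and 6.39 in AT *BRAF*(-), from 6.11 to 7.38 with a median of 6.90 in BL and from 6.30 to 7.16 with a median of 6.72 in PTC (log2 fold change 0.65, standard error 0.19, adjusted p = 0.0146 for PTC). *Mcm7*, another subunit, was at 6.68, 6.90, 6.91, 7.19 and 7.38, from 7.32 to 7.87 with a median of 7.57 and from 7.27 to 7.90 with a median of 7.59 (log2 fold change 0.53, standard error 0.13, adjusted p = 0.0043 for PTC). *Rrm1*, the large subunit of ribonucleotide reductase, was the third to pass in PTC (log2 fold change 0.44, standard error 0.14, adjusted p = 0.0241). For the others of the helicase the log2 fold changes in PTC were 0.28 for *Mcm2*, 0.40 for *Mcm3*, 0.31 for *Mcm4* and 0.34 for *Mcm5*, with adjusted p between 0.0578 and 0.113. *Mcm2* signals were 7.24, 7.32, 7.34, 7.36 and 7.45 in AT *BRAF*(-), from 7.44 to 7.90 with a median of 7.70 in BL and from 7.39 to 7.82 with a median of 7.64 in PTC. *Mcm5* did not pass although every PTC thyroid, from 6.84 to 7.53 with a median of 7.18, lay above the AT *BRAF*(-) values of 6.73, 6.75, 6.75, 6.82 and 6.83, the nearest pair differing only in the second decimal.

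*Rrm2*, the small subunit of ribonucleotide reductase and its S phase partner, passed only without mouse M_946. It was at 5.17, 5.18, 5.48, 5.60 and 5.70 in AT *BRAF*(-) and from 5.56 to 6.27 with a median of 6.06 in PTC, and at 5.17, 5.20, 5.45 and 8.57 in BHL *BRAF*(-), where 8.57 is mouse M_946. Its log2 fold change in PTC was 0.52 with a standard error of 0.31 (adjusted p = 0.238), and 0.55 with a standard error of 0.16 without that mouse (adjusted p = 0.0153). *Pcna*, the sliding clamp of DNA polymerases, which also serves DNA repair, was at 9.27, 9.33, 9.35, 9.68 and 9.77 in AT *BRAF*(-) and from 9.40 to 9.97 with a median of 9.64 in PTC (log2 fold change 0.16, standard error 0.13, adjusted p = 0.43). *Tyms*, thymidylate synthase, was at 6.82, 7.23, 7.33, 7.33 and 7.58 and from 6.76 to 7.79 with a median of 7.41 (log2 fold change 0.14, standard error 0.12, adjusted p = 0.47). *Cdc6*, which loads the helicase, was at 4.88, 4.91, 5.01, 5.15 and 5.20 and from 5.04 to 5.94 with a median of 5.37 (log2 fold change 0.29, standard error 0.14, adjusted p = 0.148). These 3 genes did not pass without mouse M_946 either, at adjusted p = 0.315, 0.43 and 0.102.

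In borderline lesions 5 mitotic and 5 replication genes were higher than in AT *BRAF*(-), against 6.05% of all probe sets. They were *Mki67* (log2 fold change 1.12, standard error 0.31, adjusted p = 0.0191), *Ccna2* at 0.94, *Cdk1* at 0.76, *Ccnb2* at 0.74 and *Kif23* at 0.66 among the mitotic genes. The replication genes that passed were all MCM subunits: *Mcm6* (log2 fold change 0.66, standard error 0.19, adjusted p = 0.02), *Mcm7* at 0.52, *Mcm5* at 0.45, *Mcm4* at 0.35 and *Mcm2* at 0.35. BL and PTC share their AT *BRAF*(-) control, so these values stand beside those of PTC and are no second measurement of that control. All 40 log2 fold changes were above 0, with a median of 0.40. No member's BL mice all lay above all AT *BRAF*(-) mice, against 1.7% of all probe sets.

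In *Mki67* and *Top2a* 1 BL thyroid lay below every PTC thyroid. BL signals of *Mki67* ran from 5.68 to 7.53 with a median of 6.88, those of *Top2a* from 4.89 to 6.70 with a median of 6.12 and those of *Mcm5* from 6.83 to 7.90 with a median of 7.24. Mouse M_649 held the lowest BL value of *Mki67* and *Top2a*. The next lowest BL values, 6.71 and 5.70, lay above the lowest PTC values, 6.37 and 5.57. Without mouse M_649 14 mitotic and 7 replication genes passed. Without mouse M_946 the counts were 16 and 7, against 6.62% of all probe sets, and all 10 of the first set were among them. Without BL mouse M_416 8 mitotic genes passed, without AT *BRAF*(-) mouse M_956 no mitotic and 2 replication genes, and without mouse M_940 1 of each, as with muscle and adipocyte marker levels in the model, while in females alone none passed. Shares of all probe sets called are not given for these fits. None is given either for the fit without mouse M_649, which was named for its low values of these same genes.

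Between PTC and BL no member and no probe set passed by limma (0% called), with 0 members at an unadjusted p under 0.05 against 774 of 35556 probe sets. The largest differences were 0.28 for *Top2a* (standard error 0.26), 0.19 for *Prc1* (standard error 0.18) and 0.17 for *Ect2* (standard error 0.17). For *Mki67* it was 0.17 (standard error 0.25) and for *Mcm6* -0.01 (standard error 0.15). A difference of that size was not detectable between 10 and 10 mice, which does not show the lesions to be alike.

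Between asymptomatic *BRAF*(+) and asymptomatic *BRAF*(-) thyroids no difference of a member passed. In AT *BRAF*(+) the signals of *Mki67* were 5.74, 6.00, 6.11, 6.35 and 6.94, those of *Ccnb2* 5.95, 6.17, 6.28, 6.45 and 7.08 and those of *Mcm5* 6.80, 6.97, 7.12, 7.28 and 7.48. Each of these ranges overlapped that of AT *BRAF*(-), since the AT *BRAF*(-) values of the same genes were 5.23, 5.26, 5.57, 5.61 and 6.60, then 5.40, 5.90, 5.98, 6.08 and 6.46, then 6.73, 6.75, 6.75, 6.82 and 6.83. By limma 0 members had an unadjusted p under 0.05 against 3438 of 35556 probe sets (3 against 3609 without mouse M_946), and 0.222% of all probe sets were called higher. Of the log2 fold changes 36 of 40 were above 0, with a median of 0.17. The 3 largest were 0.50 for *Mki67*, 0.44 for *Ccna2* and 0.36 for *Aurkb*, with adjusted p of 0.718, 0.762 and 0.716.

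By limma 5 mitotic genes and 1 replication gene were higher in PTC than in AT *BRAF*(+), against 8.49% of all probe sets, so that the replication share was near the background. At an unadjusted p under 0.05 there were 15 members against 11378 of 35556 probe sets, and 22 against 11552 without mouse M_946. The genes that passed were *Top2a* (log2 fold change 0.92, standard error 0.32, adjusted p = 0.0478), *Prc1* at 0.81, *Cdk1* at 0.68, *Cenpe* at 0.59, *Cenpf* at 0.36 and *Mcm7* at 0.39. *Top2a* signals in AT *BRAF*(+) were 4.68, 5.14, 5.24, 5.56 and 6.31, of which the highest fell among the PTC values. Without mouse M_946 11 mitotic and 2 replication genes passed (8.84% of all probe sets). Without AT *BRAF*(+) mouse M_779 0 and 0 passed, for which the share of all probe sets is not given. Between BL and AT *BRAF*(+) no member passed by limma, against 1.98% of all probe sets called higher, and the same held without mouse M_946. At an unadjusted p under 0.05 there were 7 members against 8448 of 35556 probe sets with all mice, and 19 against 8574 without mouse M_946. Between BHL *BRAF*(+) and AT *BRAF*(+) none passed either, with or without that mouse (0.0225% of all probe sets called higher with all mice). Here 3 members stood at an unadjusted p under 0.05 against 5656 of 35556 probe sets, and 9 against 5812 without mouse M_946.

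**Figure D4:**
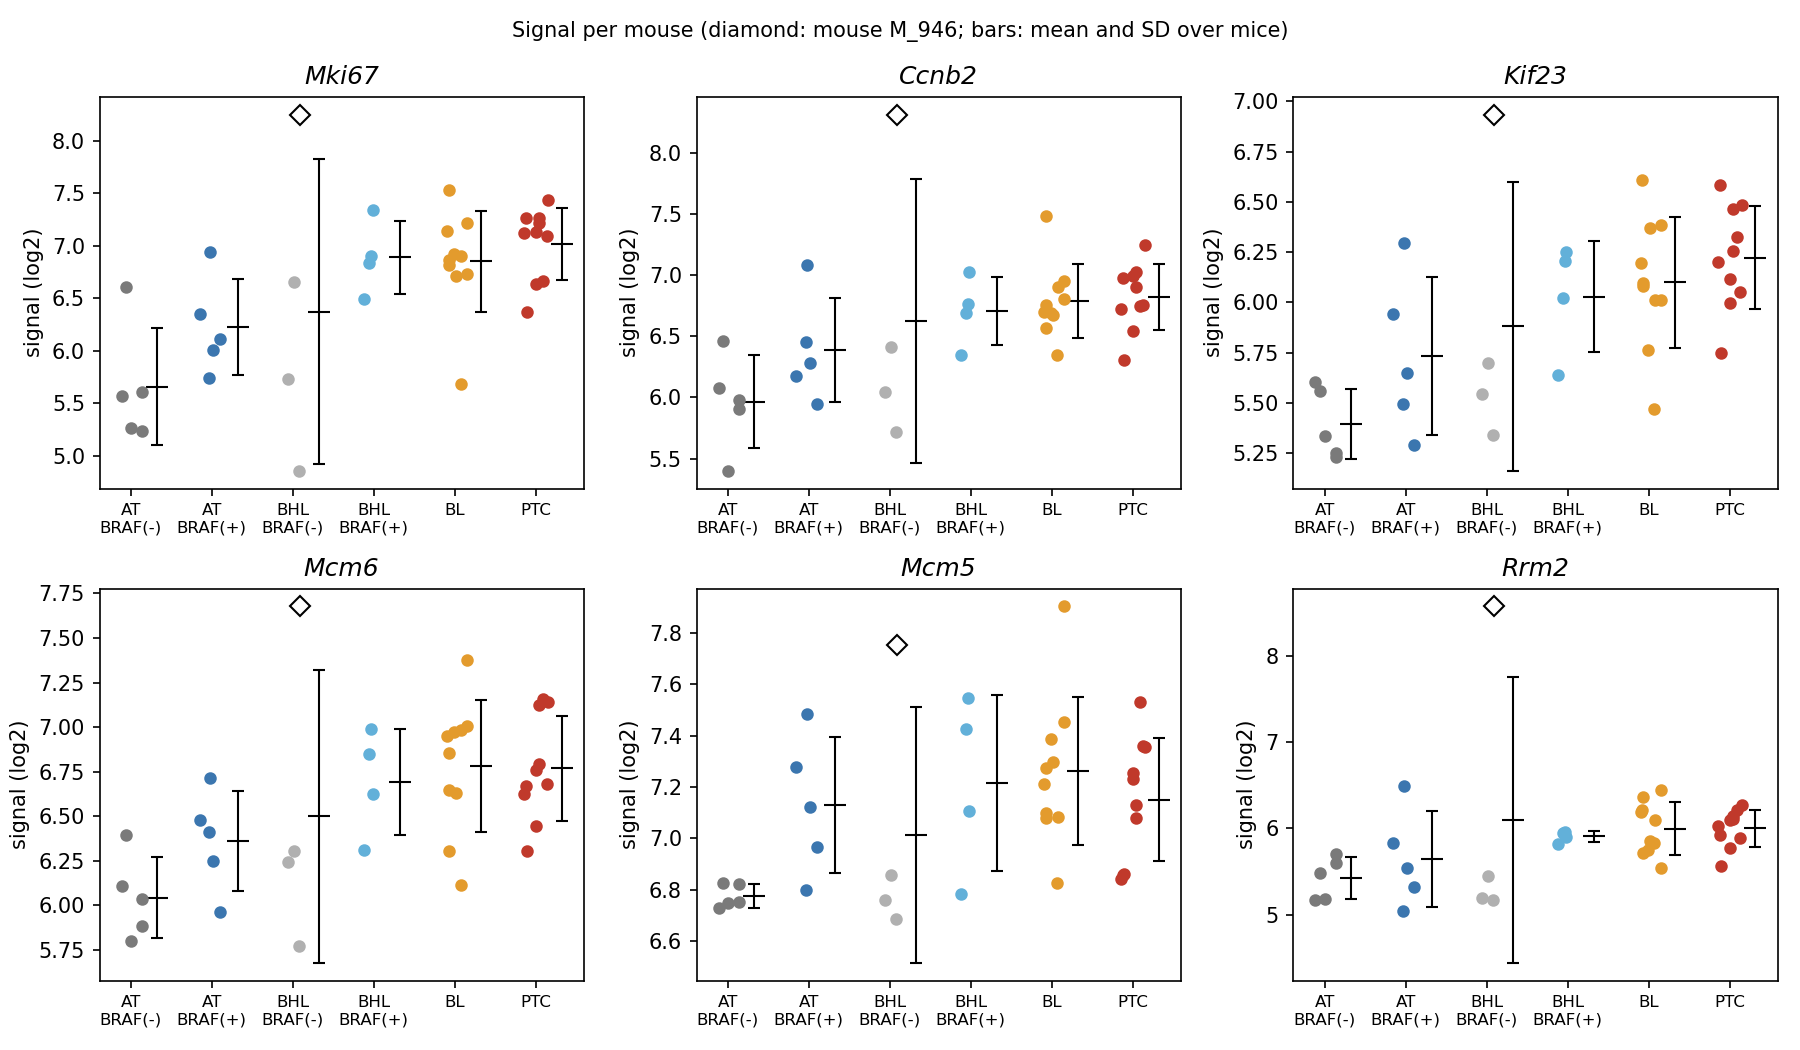
Log2 signal of *Mki67*, *Ccnb2* and *Kif23* (mitotic) and *Mcm6*, *Mcm5* and *Rrm2* (replication) in each mouse, by group, with the mean and SD over mice beside the points. Mouse M_946 (diamond) is the highest of all for every gene but *Mcm5*, and for *Kif23* the lowest PTC thyroid, at 5.75, lies above the highest AT *BRAF*(-) thyroid, at 5.60.

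Whether transgene RNA went with these genes short of cancer was asked in the 18 non-malignant thyroids, AT and BHL together, with lesion type and sex in the model. No member passed for *BRAF* status by limma, against 2.19% of all probe sets called higher, and 0 members had an unadjusted p under 0.05 against 5812 of 35556 probe sets. The median log2 fold change was 0.10 over the members and 0.02 over all probe sets. Mouse M_946 is 1 of the 9 *BRAF*(-) mice here. Without it the members' median was 0.25, 39 of 40 were above 0 and 21 had an unadjusted p under 0.05, against 5865 of 35556 probe sets, but none passed the adjustment (1.91% of all probe sets called higher). The nearest were *Mcm6* (log2 fold change 0.37, standard error 0.10, adjusted p = 0.0521), *Bub1b* (log2 fold change 0.29, standard error 0.08, adjusted p = 0.0591) and *Mcm5* (log2 fold change 0.36, standard error 0.10, adjusted p = 0.0619), all without mouse M_946.

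Within BHL the calls differed with and without that mouse. *Mki67* was at 4.85, 5.73, 6.65 and 8.25 in *BRAF*(-) and 6.49, 6.83, 6.90 and 7.33 in *BRAF*(+) BHL, and *Aurkb* at 5.69, 5.92, 6.24 and 7.91 and 6.46, 6.71, 7.09 and 7.17, with mouse M_946 the highest of each *BRAF*(-) set. No member passed by limma with all mice, 1 had an unadjusted p under 0.05 against 6957 of 35556 probe sets, beside 2.98% of all probe sets called higher, and 8 of 40 log2 fold changes were below 0. Without mouse M_946 all 40 were above 0, and 3 mitotic and 1 replication gene passed, against 2.49%: *Mki67* (log2 fold change 1.12, standard error 0.35, adjusted p = 0.0472), *Aurkb* at 0.90, *Aurka* at 0.51 and *Mcm4* at 0.48. All 4 *BRAF*(+) BHL thyroids then lay above the 3 remaining *BRAF*(-) ones for 10 members, *Cdk1*, *Bub1*, *Bub1b*, *Aurka*, *Aurkb*, *Dlgap5*, *Mcm4*, *Mcm6*, *Rrm2* and *Cdc6*. *Aurka* signals were 5.34, 5.45, 5.64 and 6.33 in *BRAF*(-) and 5.87, 5.91, 6.03 and 6.19 in *BRAF*(+) BHL, and those of *Mcm4* 6.93, 6.95, 7.06 and 7.80 and 7.23, 7.27, 7.68 and 7.71. The same lack of overlap held for 8.24% of all probe sets.

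Markers of other cells differed between the same *BRAF*(+) and *BRAF*(-) thyroids, and their part in these values was not tested. For *BRAF* status 4 of 6 adipocyte markers and 1 of 7 thyroid markers were lower with all mice (1.91% of all probe sets called lower), and 3 and 0 without mouse M_946 (1.51%), while 0 of 6 macrophage markers passed. Within BHL 2 of 7 thyroid markers were lower with and without that mouse (3.64% and 3.41% of all probe sets called lower), and 0 of 6 adipocyte markers passed. The mean of the adipocyte markers was 7.73 to 8.82 in *BRAF*(+) BHL and 8.77 to 9.84 in *BRAF*(-) BHL without mouse M_946, and that of the thyroid markers 9.77 to 10.10 and 10.39 to 10.64, which did not overlap. That of the macrophage markers was 7.97 to 8.67 and 7.05 to 8.13.

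Among *BRAF*(-) mice no member passed between BHL and AT. Against AT *BRAF*(-), BHL *BRAF*(-) had no member and no probe set past the threshold (0% called), 8 members had an unadjusted p under 0.05 by limma against 1563 of 35556 probe sets, or 0 against 1071 without mouse M_946, and the members' median of 0.27 became 0.04 without mouse M_946. For *Ccna2* the log2 fold change was 0.82 and then 0.15, for *Kif11* 0.78 and then 0.15, and for *Rrm2* 0.63 and then -0.16. The difference between the *BRAF* effects in BHL and in AT did not pass for any member, with or without that mouse (0.0281% of all probe sets called with all mice), and 0 had an unadjusted p under 0.05 by limma against 2986 of 35556 probe sets, or 2 against 3064 without it. The median difference of effects, BHL minus AT, turned from -0.10 with 18 of 40 above 0 to 0.26 with 36 of 40 above 0 without that mouse.

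**Figure D5:**
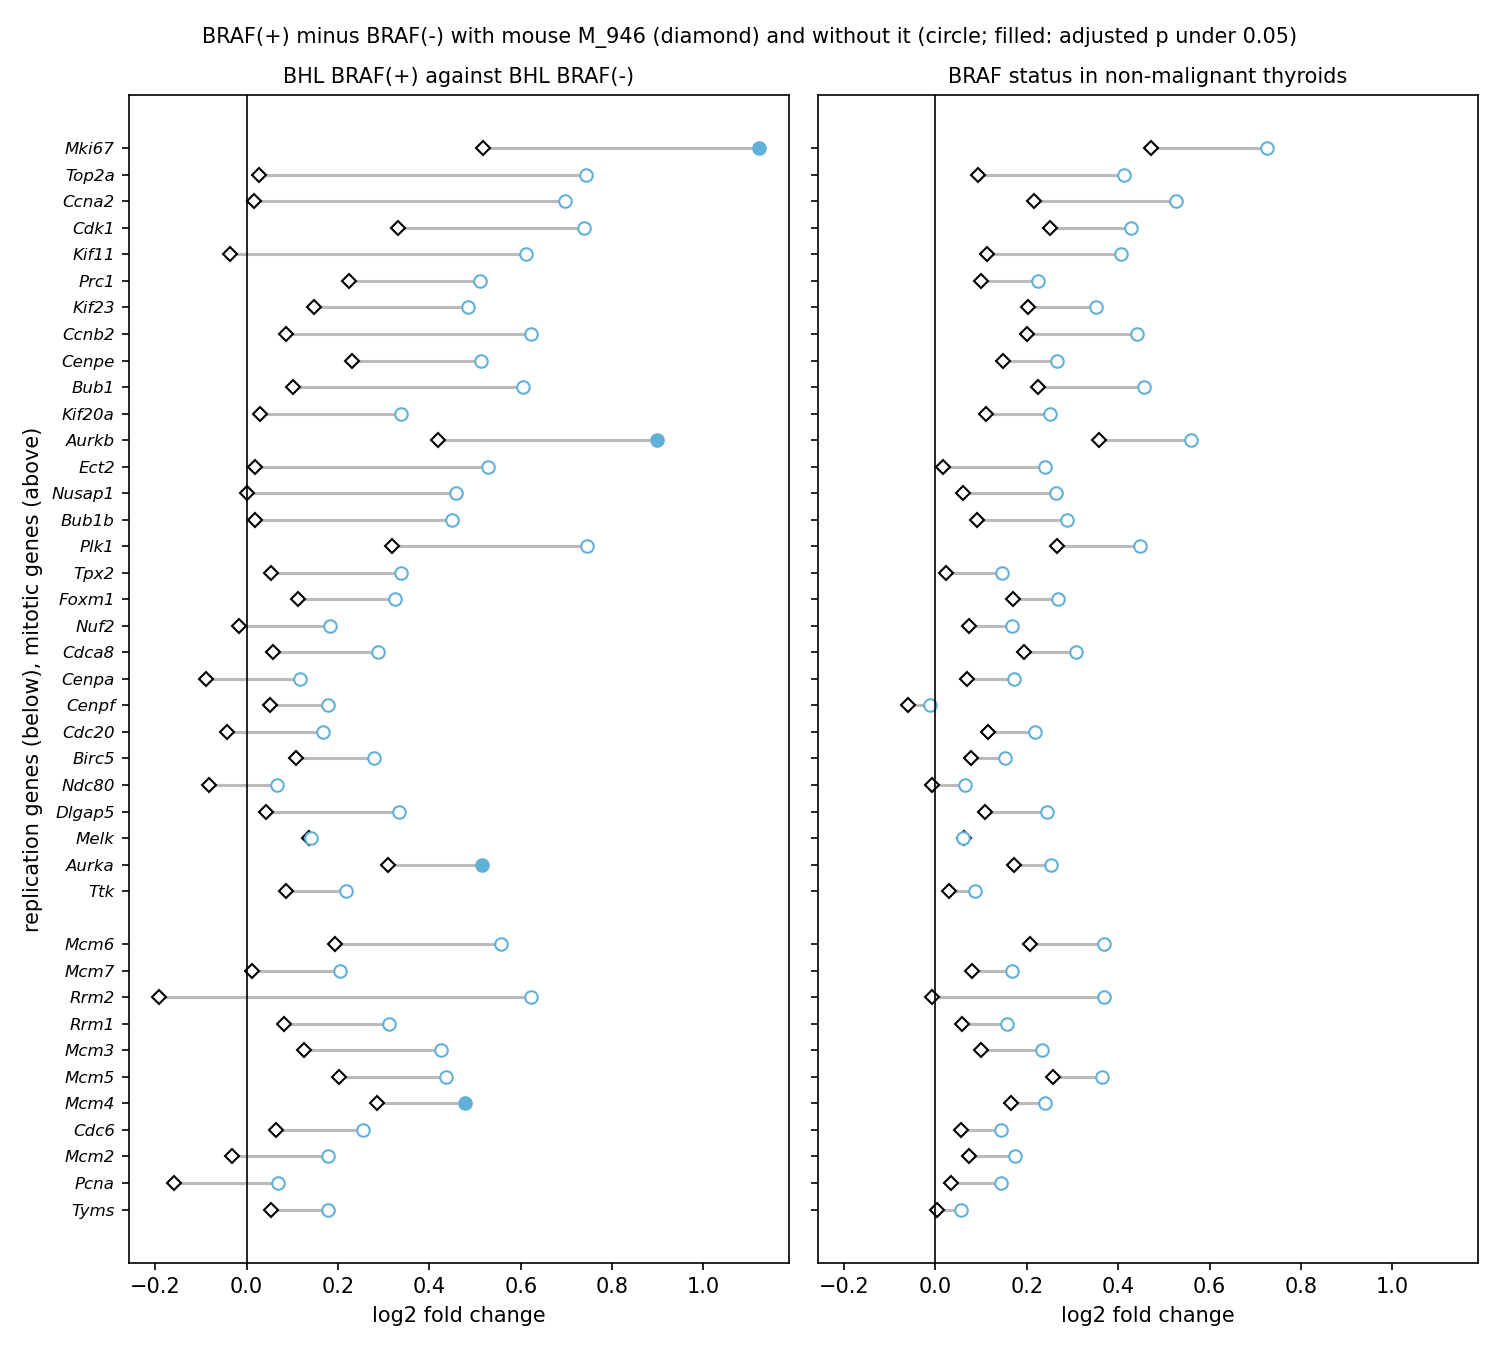
Log2 fold change of *BRAF*(+) over *BRAF*(-) thyroids for each of the 40 genes within BHL (left) and over AT and BHL together (right), with mouse M_946 (diamonds) and without it (circles, filled where adjusted p is under 0.05). Within BHL the median moved from 0.06 to 0.43, and 4 genes passed without the mouse.

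Tested at once over the 6 groups with limma's F test, 5 mitotic genes (*Mki67*, *Cdk1*, *Kif23*, *Cenpe* and *Prc1*) and 1 replication gene (*Mcm7*) differed, against 18.1% of all probe sets, so that the members' share with all mice was near the background. Without mouse M_946 it was 18 and 8, against 19.2%. *Kif23* had an adjusted p of 0.0242 and 0.00125, and *Mcm7* of 0.0113 and 0.00305. *Ttk*, *Melk*, *Cenpa*, *Ndc80*, *Pcna* and *Tyms* had an adjusted p over 0.5 in both.

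All 40 genes had lower estimates in males, with a median log2 difference of males minus females of -0.22 beside 0.01 over all probe sets. None passed by limma with all mice, where 1.45% of all probe sets were called lower in males, and 17 had an unadjusted p under 0.05 against 5271 of 35556 probe sets. *Ect2* passed without mouse M_946 (log2 fold change -0.36, standard error 0.09, adjusted p = 0.0136), against 1.43% of all probe sets, and without BL mouse M_649, the mouse with the lowest *Mki67* of its group, 3 mitotic and 1 replication gene passed. For the fit without mouse M_649 the share of all probe sets called is not given. The 9 males are few per group, so that the sex estimate rests on 1 or 2 mice in each. Males were 4 to 11 months old and females 7 to 24 months, so every mouse under 7 months was male and every mouse over 11 months female. The main fit for sex held no age term, so that sex and young age cannot be fully told apart in it. No member and no probe set passed for age by limma (0% called), and 0 members had an unadjusted p under 0.05 against 1434 of 35556 probe sets.

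Other genes of the same processes were read from lists of 45 further G2 and mitosis genes and 38 further G1/S and replication genes, which were written with earlier results of these data known. In PTC against AT *BRAF*(-), 13 of the 45 were higher and 0 lower, beside 9.8% of all probe sets called higher and 9.01% called lower. *Anln*, anillin of the cleavage furrow, differed by 1.28 on the log2 scale (adjusted p = 0.000535), and *Smc4* and *Smc2*, the arms of the condensin complex that compacts chromosomes, at 0.92 and 0.84 (adjusted p = 0.00344 and 0.00481). Of the 38 G1/S genes 2 were higher, *Pole*, the catalytic subunit of DNA polymerase epsilon (0.77, standard error 0.15, adjusted p = 0.000457), and *Lig1*, DNA ligase 1 (0.28, standard error 0.10, adjusted p = 0.045). Against them 3 were lower, *Gmnn*, geminin, which blocks relicensing of origins (-0.33, standard error 0.12, adjusted p = 0.0483), *Gins3*, of the helicase's GINS part (-0.25, standard error 0.08, adjusted p = 0.0307), and *Ung*, uracil-DNA glycosylase (-0.27, standard error 0.09, adjusted p = 0.0305). *Anln*, *Smc2*, *Smc4*, *Pole*, *Lig1* and *Ung* were picked after their values were seen. For *BRAF* status in non-malignant thyroids none of the 45 and none of the 38 passed, beside 2.19% of all probe sets called higher and 1.91% lower. Without mouse M_946 2 of the 45 passed, beside 1.91% called higher and 1.51% lower. With all mice, and not passing, *Pttg1*, securin, of the 45 was at -0.24, standard error 0.07, adjusted p = 0.0865. Of the 38, also not passing, *Gmnn* was at -0.33, standard error 0.10, adjusted p = 0.0737. *Cdt1*, the partner of *Cdc6* in licensing, was at 0.22, standard error 0.09, adjusted p = 0.218, and *E2f7*, a repressor of E2F targets, at 0.23, standard error 0.08, adjusted p = 0.111. In BL against AT *BRAF*(-) 7 of the 45 and 5 of the 38 were higher and 0 were lower, beside 6.05% of all probe sets called higher and 5.41% called lower, and without mouse M_946 10 and 6 were higher. Without mouse M_946 the PTC counts were 18 higher of the 45 and 6 higher and 3 lower of the 38.

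Markers of other cell types differed between the groups as well, and their part in the members' values was not tested. In PTC against AT *BRAF*(-), where 9.8% of all probe sets were called higher and 9.01% lower, 4 of 6 macrophage markers were higher, among them *Mrc1*, the mannose receptor, at 1.15, standard error 0.28, adjusted p = 0.00371 and *Cd68* at 0.97, standard error 0.25, adjusted p = 0.00741. The mean of the macrophage markers ran over 7.01 to 8.01 in AT *BRAF*(-), 7.92 to 8.66 in BL and 7.45 to 8.56 in PTC. Of 6 adipocyte markers 4 were lower, with *Retn*, resistin, at -1.40, standard error 0.43, adjusted p = 0.0208, and their mean ran over 9.12 to 9.67 in AT *BRAF*(-), 7.31 to 8.91 in BL and 6.03 to 9.57 in PTC. Of 7 thyroid markers 4 were lower, the iodide transporter gene *Slc5a5* by -1.31 (adjusted p = 0.0191), and their mean ran over 10.20 to 10.70, 9.58 to 10.53 and 9.47 to 10.21 in the same groups. In BL 3 macrophage markers were higher, 4 adipocyte markers were lower and 0 thyroid markers passed, beside 6.05% of all probe sets called higher and 5.41% called lower. In PTC none of 7 T cell, 7 thymocyte, 6 B cell and 10 skeletal muscle markers passed. The thymocyte mean ran over 4.41 to 4.61 in AT *BRAF*(-), 4.19 to 4.71 in BL and 4.25 to 4.57 in PTC. Muscle markers ranged over 5.29 to 10.02 in AT *BRAF*(-) and 5.23 to 8.90 in PTC, so that some glands in both carried muscle RNA. *Jchain*, the joining chain of secreted antibodies, was at 2.17, standard error 0.90, adjusted p = 0.087 in PTC and 3.14, standard error 0.90, adjusted p = 0.0215 in BL.

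Across mice the members varied together within their groups. Taking each signal as its deviation from the group mean, the median Pearson r was 0.69 over the 406 pairs of mitotic genes, 0.64 over the 55 pairs of replication genes and 0.57 over the 319 pairs of 1 of each, with all 38 mice. Without mouse M_946 the medians were 0.55, 0.48 and 0.35. Likeness to the mitotic mean was taken from the signals without subtracting group means, so that differences between groups enter these r. The genes most like the mitotic mean over 38 mice were *Cep55* (0.92), *Pclaf* (0.91), *Esco2* (0.91), *Sgo2a* (0.91), *Ncaph* (0.90), *Racgap1* (0.90), *Cip2a* (0.90), *Lmnb1* (0.90), *Knstrn* (0.90) and *Ube2c* (0.89), by Pearson r. Without mouse M_946 *Anln* came first (0.93), and *Timp1*, an inhibitor of metalloproteinases, entered the first 10 (0.87). These are descriptions over mice that share group, gland makeup and array scale.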

How the data were processed

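The RNA of 38 thyroids, each from its own mouse, was hybridised to Mouse Gene 1.0 ST arrays. The deposited values are log2 signals made by the authors with RMA (background correction, quantile normalisation and median polish, as the submitters' processing notes name it), and quantile normalisation gives all arrays nearly the same distribution. They cover 35556 probe sets, of which 21789 carried 1 gene symbol in the platform annotation, 1621 several and 12146 were not listed there. Groups came from the sample labels. Mice were not filtered.

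Linear models were fitted with limma 3.58.1 in R 4.3.3 to all probe sets, with Benjamini-Hochberg adjustment over all of them and a threshold of 0.05. *BRAF* status and its interaction with lesion type were fitted in the 18 non-malignant thyroids with lesion and sex. The pairs of groups, the F test and sex came from 1 model of 6 groups and sex over 38 mice, and age was tested with age in months added to it. The script was tested on simulated data. Tables and figures used Python 3.11.15, pandas 2.3.3, numpy 2.4.6 and matplotlib 3.10.9.

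The members and all gene lists were chosen with earlier results of these data known. Named with full values were 17 members picked by name, up to 3 called members per comparison by size of the log2 fold change, members whose groups did not overlap, up to 4 genes per other list by the moderated t for *BRAF* status, and the 10 genes most like the mitotic mean. The number of arrays limits the precision. Alternatives were the study's flat filter (1.5-fold from the median in 20% of arrays), centring, another variance model, other covariates, females alone, only the mice compared, the mean of probe sets and leaving out each mouse.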

Additional observations from a re-analysis of the deposited data

Results flagged for a closer look

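Within groups of 4 to 10 mice, 18 of 240 ranges of a member in a group held a highest or lowest value far from its nearest neighbour by Dixon's test at the 95% level. Chance gives about 1 in 20. In BHL *BRAF*(-), mouse M_946 was the high value for *Bub1* (6.71), *Bub1b* (6.82), *Kif11* (7.73), *Mcm4* (7.80), *Mcm5* (7.75) and *Rrm2* (8.57). In AT *BRAF*(-), mouse M_957 was the high value for *Mki67* (6.60), *Kif20a* (5.23), *Birc5* (5.38) and *Prc1* (5.31). In AT *BRAF*(+), mouse M_1003 was high for *Cenpa* (7.39) and *Melk* (5.19). In BL, mouse M_649 was low for *Mki67* (5.68), mouse M_360 was high for *Ccnb2* (7.49) and *Melk* (5.09), and mouse M_530 was high for *Cdc6* (6.02). In PTC, mouse M_1002 was low for *Ccna2* (5.86) and *Tyms* (6.76).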

How the results depend on the processing

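No paired analysis was possible because mouse numbers are not shared between groups. The counts of called mitotic and replication members below stand against 14 and 3 (PTC against AT *BRAF*(-)), 5 and 5 (BL against AT *BRAF*(-)), 5 and 1 (PTC against AT *BRAF*(+)), 5 and 1 (F test over the groups) and 0 and 0 (sex, BL against AT *BRAF*(+), BHL *BRAF*(+) against BHL *BRAF*(-)). Shares of all probe sets called are not given beside the counts below, so these counts describe the members only. Only 9 mitotic members and 1 replication member of the 40 pass the study's flat filter (4388 probe sets): of these, 9 and 0 passed in PTC and 9 and 0 in BL against AT *BRAF*(-), 3 and 0 in PTC against AT *BRAF*(+), 0 replication members in the F test and 1 mitotic member for sex. The filter keeps probe sets by their spread over these same arrays. The members left were thus picked for varying, and their counts are no separate support. With each array centred on its median, 2 replication members passed in BL against AT *BRAF*(-), and 3 and 0 in PTC against AT *BRAF*(+). An intensity trend with robust variance gave 3 replication members in BL against AT *BRAF*(-), and age as a covariate 2 in the F test. With no sex term, 11 mitotic members passed in BL against AT *BRAF*(-) and 2 in PTC against AT *BRAF*(+). With muscle and adipocyte scores added, 8 and 1 passed in PTC and 1 and 1 in BL against AT *BRAF*(-), with 0 mitotic members in the F test. With the T cell and thymocyte score added, 7 replication members passed in PTC and 11 mitotic members in BL against AT *BRAF*(-), 3 mitotic members in BHL *BRAF*(+) against BHL *BRAF*(-), 17 and 5 in PTC and 3 and 1 in BL against AT *BRAF*(+), 17 and 7 in the F test, and 2 and 1 for sex. With the B cell score added, 3 and 2 passed in BL against AT *BRAF*(-), 8 and 2 in PTC against AT *BRAF*(+) and 2 replication members in the F test. In females only, 5 and 0 passed in PTC and 0 and 0 in BL against AT *BRAF*(-), 1 and 0 in PTC against AT *BRAF*(+) and 1 and 0 in the F test. Fitted with only the mice of both groups, 8 replication members passed in PTC and 10 mitotic members in BL against AT *BRAF*(-), and 11 mitotic members in PTC against AT *BRAF*(+). The cause of these shifts was not tested. The filter left fewer probe sets, and the females and the pairs of groups left fewer mice.

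Leaving out each mouse in turn, the mitotic count ran from 7 (mouse M_956) to 19 (mouse M_946) and the replication count from 2 to 7 (mouse M_946) in PTC against AT *BRAF*(-), from 0 (mouse M_956) to 16 (mouse M_946) and from 1 (mouse M_940) to 7 (mice M_649 and M_946) in BL against AT *BRAF*(-), from 0 (mouse M_779) to 11 (mouse M_946) and from 0 to 2 in PTC against AT *BRAF*(+), from 1 (mouse M_956) to 18 and from 1 to 8 (both mouse M_946) in the F test, from 0 to 3 and from 0 to 1 (both mouse M_649) for sex, from 0 to 1 (mouse M_416 or M_649) and from 0 to 1 (mouse M_1003) in BL against AT *BRAF*(+), and from 0 to 3 and from 0 to 1 (both mouse M_946) in BHL *BRAF*(+) against BHL *BRAF*(-). For all other comparisons both counts stayed at 0. The mitotic mean minus that of AT *BRAF*(-) ran from 0.13 to 0.28 in AT *BRAF*(+), 0.03 (mouse M_946) to 0.59 in BHL *BRAF*(-), 0.43 to 0.60 in BHL *BRAF*(+), 0.44 to 0.55 in BL and 0.54 to 0.62 in PTC, and the replication mean from 0.09 to 0.24, 0.02 (mouse M_946) to 0.45, 0.33 to 0.45, 0.37 to 0.45 and 0.37 to 0.44 in that order. Of the single-gene values under all settings, 14135 kept their side of the threshold, 198 fell below it, 157 rose past it and none that was called changed sign.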
